A study of Mus musculus with 18 samples.

Results

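RAW264.7 mouse macrophages given a sub-fraction of Hypericum perforatum were set against the same cells given 4 purified compounds, in both cases without lipopolysaccharide. The comparison took the 6 arrays titled Fraction and 4CS without LPS, 3 of each, out of 18 arrays in the series. RAW264.7 is a macrophage line from a mouse tumour induced by Abelson leukemia virus. Fraction cells received 10 ug/mL of the sub-fraction. Mixture cells received the 4-component system of chlorogenic acid at 0.2 uM, quercetin at 0.08 uM, amentoflavone at 0.07 uM and pseudohypericin at 0.03 uM. Vehicle cells, used here for reference, received 0.1% DMSO in medium. The labels do not give the DMSO content of the other media. All cells were treated for 8 h, dosed in the dark and then held for 30 min in ambient light, and the remaining 3 groups repeated these treatments with 10 ug/mL LPS, the bacterial product that activates Toll-like receptor 4. Total RNA was hybridized to Affymetrix Mouse Genome 430 2.0 arrays, and the fit used the deposited signals of all 18 arrays. No label states that arrays of the same group were separate cultures, and the p-values therefore measure only the spread among the arrays, which may be technical. How the compound concentrations relate to the content of the fraction is not given in the labels.

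Hypericum perforatum, St John's wort, is a medicinal plant whose extracts hold many compounds. Pseudohypericin is a light-sensitive naphthodianthrone, quercetin and amentoflavone are a flavonol and a biflavone, and chlorogenic acid is a phenolic ester common in plants. Cells that lack amino acids, carry misfolded protein or meet oxidants slow translation by phosphorylating eIF2 alpha and make more of the transcription factor ATF4, which with CHOP drives genes of amino acid supply and of stress. Resting macrophages also keep a low tone of interferon beta signalling, which sets the level of many antiviral genes. The design names the 4 compounds as putative bioactive constituents, and this comparison asks where cells given the whole fraction differed from cells given the 4 compounds.

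Fraction-treated cells had more RNA of genes of the CHOP and ATF4 stress response, of amino acid transport and of tRNA charging than mixture-treated cells. They had less of interferon response, sterol synthesis and DNA replication genes. Some heat shock and ribosome biogenesis genes were lower too, 8 of 20 and 10 of 24, with 1 higher in each list. Levels are MAS5 signals, the authors' linear intensities scaled to a common trimmed mean, and differences are given as log2 of fraction minus mixture ± standard error from limma with 3 arrays in each group. Of 11547 genes tested, 3743 (32.4%) passed an adjusted p of 0.05, 1962 (17%) higher and 1781 (15.4%) lower with the fraction. The called differences were mostly modest, with a median of 0.62 (1.54-fold) for the higher genes and -0.49 (1.41-fold) for the lower. At least 2-fold differences numbered 434 higher and 205 lower, and at least 4-fold differences 93 and 27. The 3 fraction arrays lay wholly above or below the 3 mixture arrays in 5166 genes (44.7%). Against vehicle, on the same fraction arrays, the fraction had 1837 higher (15.9%) and 1771 lower genes (15.3%). Median centring of the arrays shifted the median gene of that comparison to -0.11 and its split to 938 higher and 1959 lower. When every probe set was tested without a filter, 5749 of 45037 passed (12.8%), 3077 higher and 2672 lower.

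**Figure D1:**
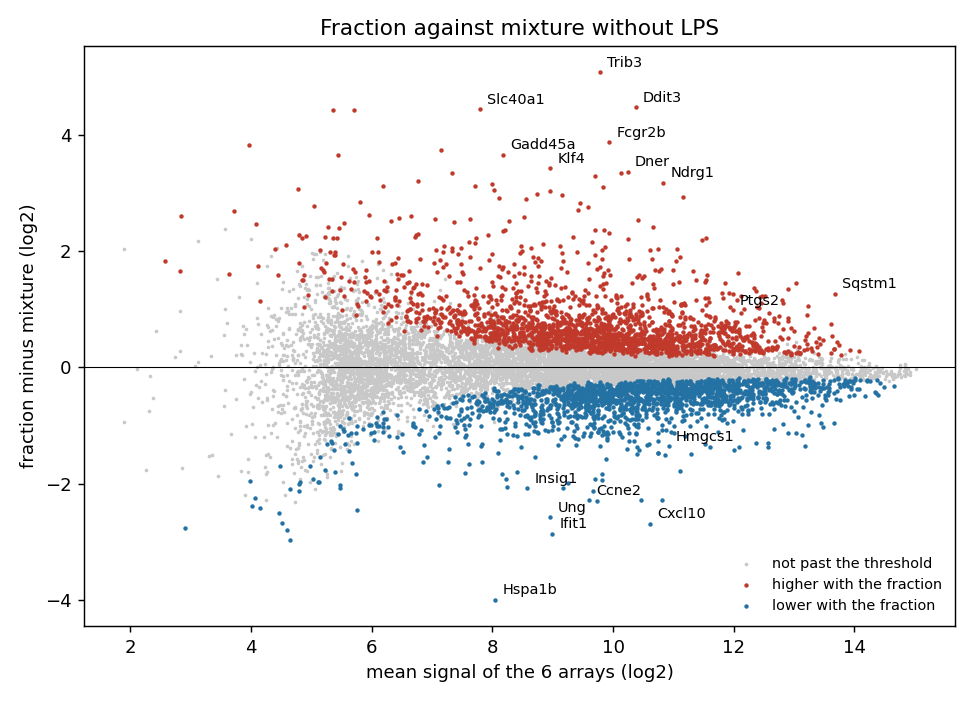
Each point is a tested gene, with the mean log2 signal of the 6 arrays on the horizontal axis and the log2 difference of fraction minus mixture on the vertical axis. Genes past an adjusted p of 0.05 are coloured, 1962 higher in red and 1781 lower in blue, with Trib3 at 5.08 and Hspa1b at -4.00 at the extremes of the brighter genes.

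The mixture itself had no gene past the threshold against vehicle (0%) by limma, and 565 genes had an unadjusted p under 0.05. The smallest adjusted p was 0.55, and the groups did not overlap in 960 genes (8.31%). Across genes, which are not independent replicates, log2 signals of mixture and vehicle arrays correlated at 0.970 to 0.979 (9 pairs), those of mixture arrays with each other at 0.970 to 0.976, and those of fraction and mixture arrays at 0.945 to 0.957. The absence of calls does not show that the mixture acted like vehicle, because the median half-width of the 95% interval was 0.30 on the log2 scale. The interval lay within 0.5 of zero for 60.9% of the genes and within 1 for 82.4%. The genes with the smallest p were Klhl2, a Kelch-type ubiquitin ligase adaptor, at -0.56 ± 0.11, the ribosomal protein gene Rpl22 at 0.33 ± 0.07, the chemokine receptor gene Ccr1 at -2.40 ± 0.53, E530011L22Rik at -1.61 ± 0.37 and the transcription factor gene Sox4 at 2.50 ± 0.62. Without mixture replicate 1, 3 genes passed (Ccr1, Klhl2 and Olfml3, all lower). Without replicate 1 of every group, 5 passed (Bmp2, Cadps, Dner, Hao1 and Plk2, all lower), and with no filter on low values 1 passed (Hrh1, lower). Of these, Olfml3, Bmp2, Cadps, Hao1, Plk2 and Hrh1 were chosen after their values were seen.

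**Figure D2:**
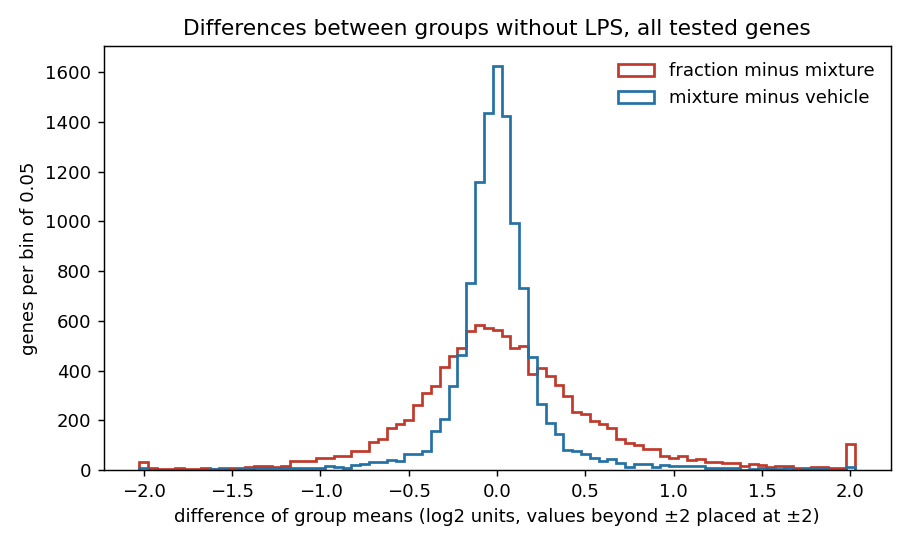
Histograms count the 11547 genes by their difference of group means in bins of 0.05 log2 units, in red for fraction minus mixture and in blue for mixture minus vehicle, with values beyond 2 in either direction placed at the ends. The median absolute difference was 0.29 for fraction minus mixture and 0.10 for mixture minus vehicle.

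In the list of CHOP and ATF4 stress response genes, 18 of 21 tested members were higher with the fraction and 0 lower. The share called was 85.7%, against 32.4% of all genes, and the median difference was 1.89, against 0.00073 over all genes. Trib3, a pseudokinase induced by ATF4 and CHOP, read 5239.5, 5382 and 4799 on the fraction arrays and 169, 132 and 156 on the mixture arrays. The groups lay far apart, at 33.9-fold (5.08 ± 0.16, adjusted p = 1.1e-13), and both Trib3 probe sets were higher. However, the one used is of a kind open to cross-hybridization, as are, among others, those of Fcgr2b, Ndrg1, Socs3, Hmgcs1, Gm6377, Fen1 and Rrm2. Ddit3, which encodes CHOP itself, gave 6328, 6951 and 5618 with the fraction and 248, 305 and 291 with the mixture. That was 22.4-fold higher (4.49 ± 0.23, adjusted p = 5.4e-11). Atf3, a stress-induced member of the same bZIP family, stood at 2094, 2622 and 3244 against 349, 273 and 195 (3.30 ± 0.24, adjusted p = 6.7e-09). Nupr1, a small nuclear stress protein, stood at 6141, 6207 and 6544 against 817, 887 and 772 (2.93 ± 0.16, adjusted p = 2.0e-10). In each of these 4 genes the lowest fraction array exceeded the highest mixture array. The BH3-only apoptosis gene Bbc3 (2.25 ± 0.18), the glutamate-pyruvate transaminase gene Gpt2 (2.32 ± 0.11), the leucine sensor gene Sesn2 (1.74 ± 0.27) and the C/EBP factor gene Cebpb (1.03 ± 0.15) were higher as well. Atf4, named here after its values were seen, read 12600.2, 14355 and 14624 against 4727, 5618 and 4891 (1.45 ± 0.09, adjusted p = 4.0e-10). On the same list mixture minus vehicle had 0 calls, as over all genes tested (0%), and a median of -0.06. Fraction minus vehicle, which shares the fraction arrays, had 18 of 21 members higher, against 15.9% of all genes, and a median of 1.96. For Trib3 the mixture stood at -0.35 ± 0.16 and the fraction at 4.73 ± 0.16 against vehicle, where the arrays read 187, 199 and 194.

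The 250 bases before the annotated starts of Atf3 and Nupr1 are shown because both genes were strongly higher and hold the letters TGATGNAA, the core of C/EBP-ATF composite elements that ATF4 and CHOP bind. Sequences are from RefSeq on GRCm38.p6, written 5′ to 3′ on the gene's strand, with the match on either strand in capitals.
Atf3, chr1:191183334-191183583, minus strand: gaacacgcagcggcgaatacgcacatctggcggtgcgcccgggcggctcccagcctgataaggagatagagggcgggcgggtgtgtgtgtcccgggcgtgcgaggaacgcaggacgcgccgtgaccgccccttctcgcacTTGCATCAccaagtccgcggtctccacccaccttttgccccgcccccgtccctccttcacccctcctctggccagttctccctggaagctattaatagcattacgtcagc
Nupr1, chr7:126625471-126625720, minus strand: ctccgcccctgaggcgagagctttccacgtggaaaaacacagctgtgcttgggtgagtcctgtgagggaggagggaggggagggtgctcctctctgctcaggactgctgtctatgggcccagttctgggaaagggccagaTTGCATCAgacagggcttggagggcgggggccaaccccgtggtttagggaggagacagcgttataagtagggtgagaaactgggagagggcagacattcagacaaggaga
In both promoters the match ends 102 bases before the annotated start. Of 18 list members with a promoter entry 4 hold the letters on either strand (22.2%), all 4 among the 16 called, against 3.91% of 27025 promoters of the same length, and Trib3 and Ddit3 have no match in this window.

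Among chaperones of the endoplasmic reticulum and targets of its stress factor XBP1, 3 of 22 tested members were higher and 6 lower (40.9% called, against 32.4% of all genes), with a median of -0.07. Herpud1, a component of the degradation machinery of the endoplasmic reticulum, read 4622, 5213 and 4908 against 1579.5, 1757 and 1974 with no overlap (1.48 ± 0.11, adjusted p = 1.1e-08). Its partner Sel1l was at 0.86 ± 0.10 and the oxidase gene Ero1a at 0.45 ± 0.12, and the Ero1a call was lost without fraction replicate 3 (0.28, adjusted p = 0.060). The co-chaperone genes Dnajc3 (-0.48 ± 0.09) and Dnajb11 (-0.44 ± 0.09) were lower. Hspa5, which encodes the chaperone BiP and is named here after its values were seen, read 20915, 22821 and 23015 against 21787, 21929.5 and 26738. These overlapped, and the difference of -0.07 ± 0.09 had a 95% interval from -0.26 to 0.12 (adjusted p = 0.60).

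Genes of amino acid supply and tRNA charging were mostly higher with the fraction. Among the aminoacyl-tRNA synthetases, which load amino acids onto their tRNAs, 13 of 19 were higher and 1 lower (73.7% called, against 32.4% of all genes). The median was 0.68. The alanine enzyme gene Aars read 6129.9, 6927 and 5868 against 2659, 2892 and 2325. That was the largest difference of the list (1.27 ± 0.09, adjusted p = 5.2e-09), followed by the cysteine (Cars, 1.07 ± 0.08), serine (Sars, 1.07 ± 0.10), tryptophan (Wars, 0.99 ± 0.10) and isoleucine (Iars, 0.86 ± 0.08) enzymes. Among amino acid transporters 12 of 20 were higher and 1 lower (65% called, against 32.4% of all genes), with a median of 0.80. Slc1a4, a carrier of alanine, serine and cysteine, gave 1199.7, 1384 and 1041 with the fraction and 147, 177 and 135 with the mixture (7.89-fold, 2.98 ± 0.18, adjusted p = 4.7e-10). All 3 Slc1a4 probe sets were higher. Slc7a7, a subunit of the y+L exporter of basic amino acids, was at 2.51 ± 0.27, the glycine carrier gene Slc6a9 at 1.62 ± 0.12, and Slc7a11, the cystine and glutamate exchanger, at 1.94 ± 0.11. Slc7a8 was at 1.56 ± 0.43 from mixture levels under the array median, and lost its call without replicate 1 of every group (adjusted p = 0.11).

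In serine, one-carbon, asparagine and proline synthesis, 13 of 18 members were higher and 4 lower (94.4% called, against 32.4% of all genes). The median was 0.49. Cth, the cystathionine gamma-lyase that makes cysteine, read 3444, 3363 and 4013 against 327, 346 and 389, and the groups did not overlap. The difference was 10.2-fold (3.35 ± 0.14, adjusted p = 5.5e-12). Cth also stands on the CHOP and ATF4 list. The mitochondrial folate enzyme genes Aldh1l2 (2.42 ± 0.12) and Mthfd2 (1.32 ± 0.09) and the proline synthesis gene Aldh18a1 (1.23 ± 0.08) were higher too. The synthetase, transport and synthesis lists had 0 calls for mixture minus vehicle, as had all genes tested (0%), with medians of 0.03, -0.01 and -0.02.

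**Figure D3:**
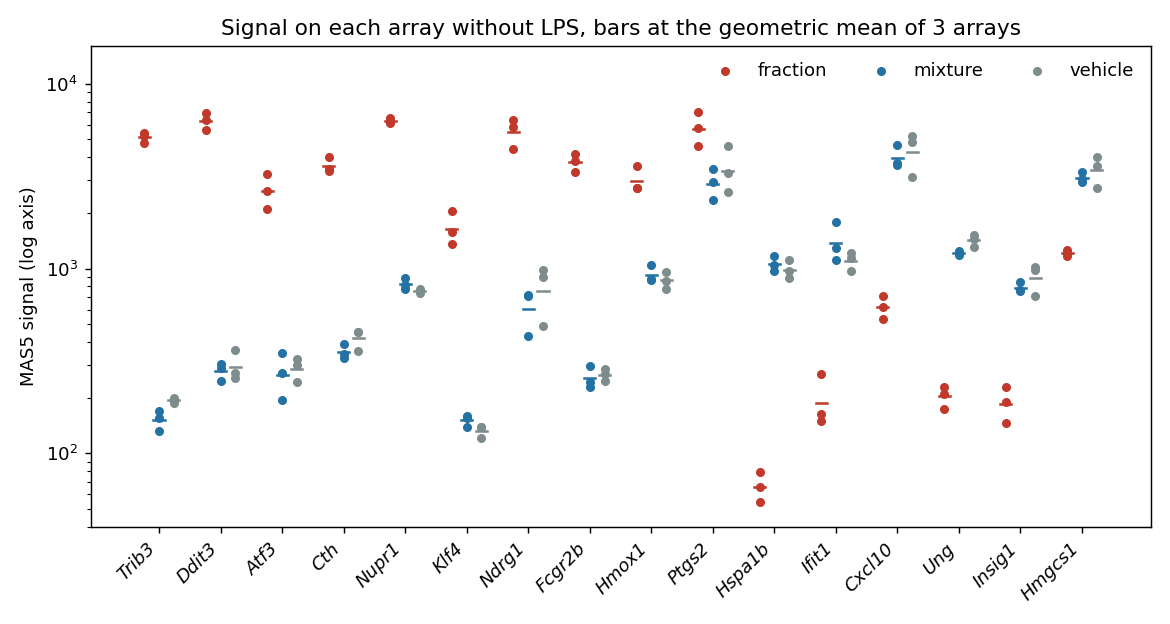
Points are the MAS5 signals of single arrays on a log axis for 16 genes, with fraction in red, mixture in blue and vehicle in grey, and bars at the geometric mean of 3 arrays. For Trib3 the fraction arrays lie at 4799 to 5382 against 132 to 169 for the mixture, and for Hspa1b at 54.6 to 79.1 against 974 to 1163.

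Of the targets of NRF2, the factor that answers oxidants and electrophiles, 8 of 22 were higher and 2 lower, with a median of 0.32. Calls made up 45.5% of that list, against 32.4% of all genes. Hmox1, the heme oxygenase that frees iron from heme, read 2718, 3565 and 2729 against 1042, 868 and 882 with no overlap (3.21-fold, 1.68 ± 0.14, adjusted p = 3.7e-08). The autophagy receptor gene Sqstm1 was at 1.27 ± 0.10, the glutathione synthesis gene Gclc at 0.72 ± 0.16, catalase (Cat) at 0.59 ± 0.12 and the efflux pump gene Abcc1 at 0.47 ± 0.09. Among iron handling genes 7 of 19 were higher and 2 lower (47.4% called, against 32.4% of all genes). Slc40a1, ferroportin, the only known iron exporter of mammalian cells, read 602, 1566 and 1185 on the fraction arrays and 35.6, 36.7 and 82.7 on the mixture arrays. As the mixture mean lay under the array median, the fold is a lower bound, at least 17.4-fold (4.45 ± 0.46, adjusted p = 5.1e-07). Lcn2, a siderophore-binding protein, was at least 8.54-fold higher (3.34 ± 0.45) and Cp, the ferroxidase ceruloplasmin, at least 3.19-fold higher (2.52 ± 0.62, or 1.48 without mixture replicate 3). The mitochondrial iron importer gene Slc25a37 was at 1.02 ± 0.19. In the xenobiotic metabolism and efflux list 5 of 16 were higher and 0 lower, in all close to the 32.4% called of all genes, among them the sterol hydroxylase gene Cyp27a1 (1.14 ± 0.17) and the glutathione transferase genes Gstp1 (0.58 ± 0.13) and Gsto1 (0.54 ± 0.15). Gsto1 lost its call without mixture replicate 2 (0.39, adjusted p = 0.064), and Abcc5 (0.47 ± 0.15) without fraction replicate 2 or mixture replicate 1 (adjusted p = 0.073 and 0.097). Cyp1a1 was not among the tested genes.

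Type I interferon response genes were lower with the fraction. Of 38 tested members 29 were lower and 0 higher (76.3% called, against 32.4% of all genes), with a median of -1.004. Ifit1, which binds viral RNA that lacks host cap methylation, read 150.5, 270.3 and 163 with the fraction and 1775, 1294 and 1114 with the mixture. The highest fraction array stayed under the lowest mixture array, and the level was 7.27-fold lower (-2.86 ± 0.23, adjusted p = 1.8e-08). Cxcl10, a chemokine for T cells, read 534, 711 and 619 against 4675, 3743 and 3616 (6.46-fold lower, -2.69 ± 0.18, adjusted p = 2.1e-09). Rsad2, the antiviral enzyme viperin, read 492, 851 and 617 against 4327, 3100.0 and 2208 (-2.28 ± 0.25, adjusted p = 1.1e-06), with all 3 probe sets lower. Its genomic neighbour Cmpk2, a mitochondrial nucleotide kinase, was at -2.30 ± 0.35 and the immunity-related GTPase gene Irgm1 at -2.28 ± 0.19. Ifnb1, the interferon beta gene and named here after its values were seen, read 10.1, 43.2 and 60.8 against 91.7, 82.1 and 70.5, with all 3 fraction arrays under and all 3 mixture arrays above the array median (-1.44 ± 0.41, adjusted p = 0.010). Against vehicle the list had 0 calls for the mixture (median 0.01), as had all genes tested (0%). The fraction, on the same fraction arrays, had 32 of 38 members lower, against 15.3% of all genes (median -1.06).

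The promoters of Ifit1 and Cxcl10 are shown because these were the interferon genes with the largest falls, with the letters GAAANNGAA of the interferon-stimulated response element in capitals on either strand.
Ifit1, chr19:34640639-34640888, plus strand: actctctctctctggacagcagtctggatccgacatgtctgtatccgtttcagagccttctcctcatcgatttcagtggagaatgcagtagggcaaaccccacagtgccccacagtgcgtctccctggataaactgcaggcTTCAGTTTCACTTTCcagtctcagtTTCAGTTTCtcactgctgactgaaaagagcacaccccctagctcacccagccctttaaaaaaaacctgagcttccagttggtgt
Cxcl10, chr5:92348890-92349139, minus strand: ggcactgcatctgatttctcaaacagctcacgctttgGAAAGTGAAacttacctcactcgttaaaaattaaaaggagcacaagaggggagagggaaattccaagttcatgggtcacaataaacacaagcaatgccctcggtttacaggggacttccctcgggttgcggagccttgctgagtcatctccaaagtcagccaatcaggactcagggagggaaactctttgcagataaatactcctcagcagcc
Ifit1 holds 3 matches, a pair of which overlap, and Cxcl10 holds 1. Of 28 list members with a promoter entry 14 hold the letters (50%), 10 of them among the 21 called, against 8.18% of all promoters, and Cmpk2 has no match in its window.

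Of 30 cytokine and chemokine genes 6 were higher with the fraction and 3 lower, and the 30% called is near the 32.4% of all genes, so the count is no result about the list. Cxcl2, a neutrophil chemokine, read 6303, 7957 and 5305 against 1000.2, 1515 and 1697, with no overlap (4.69-fold, 2.23 ± 0.20, adjusted p = 7.8e-08). The growth factor gene Vegfa (1.84 ± 0.19), the interleukin 1 receptor antagonist gene Il1rn (1.83 ± 0.37) and oncostatin M (Osm, 1.06 ± 0.21) were higher. Tnf, the tumour necrosis factor gene, read 3769.9, 4691 and 3969.7 against 4200.4, 6159 and 6976, and these ranges overlap. Its difference of -0.45 ± 0.13 passed the threshold (adjusted p = 0.014), but not when fraction replicate 1, mixture replicate 2 or mixture replicate 3 was left out (adjusted p = 0.063, 0.063 and 0.10). Il1b stood near the array median at 72.8, 39.7 and 68.7 against 82.1, 58.9 and 62.2 (-0.20 ± 0.21, 95% interval from -0.63 to 0.23, adjusted p = 0.51), and its sign turned without fraction replicate 2 (0.077). Il6 lay under the array median in both groups (0.96 ± 0.56, adjusted p = 0.21). Csf2 also lay under it in both groups, at 1.65 ± 0.51. Its call was lost without fraction replicate 2, mixture replicate 1 or mixture replicate 3 (adjusted p = 0.061, 0.086 and 0.085). It was also lost when only the 6 arrays compared were fitted (adjusted p = 0.54). In all, 6 of 16 alternative runs lost the Csf2 call, and its difference ranged from 0.27 to 2.39 among them all.

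Among genes of prostaglandin, leukotriene and nitric oxide synthesis and sensing, 8 of 19 were higher and 1 lower. Calls made up 47.4% of this list, against 32.4% of all genes. Ptgs2, the inducible cyclooxygenase, read 7024, 5752 and 4578 with the fraction, 3468, 2345 and 2934 with the mixture and 2591, 3275 and 4575 with vehicle. Every fraction array lay above every mixture array (1.98-fold, 0.98 ± 0.17, adjusted p = 2.2e-04), while mixture minus vehicle was -0.23 ± 0.17 with a 95% interval from -0.60 to 0.13. The prostaglandin E2 receptor gene Ptger2 was at least 5.37-fold higher (2.56 ± 0.31) and the prostacyclin receptor gene Ptgir 4.28-fold higher (2.10 ± 0.36). Gch1, which starts the synthesis of the nitric oxide synthase cofactor tetrahydrobiopterin, was at 1.59 ± 0.13, the prostaglandin D synthase gene Hpgds at 1.46 ± 0.19 and the 5-lipoxygenase gene Alox5 at 1.17 ± 0.25. Nos2, the inducible nitric oxide synthase, read 132, 98.4 and 53.03 against 51.1, 75.2 and 9.07, overlapping, at 1.44 ± 0.56 (adjusted p = 0.055, 95% interval from 0.27 to 2.60). Nos2 passed the threshold when fraction replicate 3, mixture replicate 1 or mixture replicate 2 was left out (adjusted p = 0.033, 0.039 and 0.010).

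Among genes that damp inflammatory signalling 10 of 27 were higher and 4 lower (51.9% called, against 32.4% of all genes). Without mixture replicate 3 the higher count was 6. Socs3, which blocks JAK kinases at cytokine receptors, read 89.7, 123 and 120.5 against 516, 202 and 401, with no overlap (3.16-fold lower, -1.66 ± 0.24, adjusted p = 2.5e-05). All 3 Socs3 probe sets were lower. Its relative Socs1 was at -1.54 ± 0.44, a call lost without fraction replicate 1 (adjusted p = 0.076). In the other direction, the nuclear IkB gene Nfkbiz was at 1.50 ± 0.15 and the MAP kinase phosphatase gene Dusp4 at 1.08 ± 0.16. Dusp1, at 1.00 ± 0.38 (adjusted p = 0.048), lost its call when any 1 of the 6 arrays was left out (adjusted p from 0.050 to 0.16). Among Toll-like receptor and NF-kB components 7 of 26 were higher and 4 lower (42.3% called, against 32.4% of all genes). Tlr4, the LPS receptor, read 1595, 1540.2 and 1736 against 659.8, 675 and 718, wholly higher (1.25 ± 0.11, adjusted p = 5.9e-08). The NF-kB subunit gene Relb (1.25 ± 0.18) and the kinase scaffold gene Ikbkg (0.57 ± 0.12) were higher, the adaptor gene Tirap (-0.89 ± 0.13) and the LPS co-receptor gene Cd14 (-0.48 ± 0.10) lower. Tlr13 (1.07 ± 0.31) lost its call without mixture replicate 2 or 3 (adjusted p = 0.071 and 0.054).

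DNA replication and G1/S genes were lower with the fraction in 27 of 37 cases and higher in 1 (75.7% called, against 32.4% of all genes). The median was -0.56. Cdc6, which loads the replicative helicase, read 432, 395 and 346 against 1532, 1835 and 1742, with no overlap (4.36-fold lower, -2.12 ± 0.17, adjusted p = 1.7e-08). Ung, a uracil DNA glycosylase, read 210.4, 175 and 228 against 1178, 1217 and 1245 (5.97-fold lower, -2.58 ± 0.22, adjusted p = 5.4e-08). Cyclin E2 (Ccne2) was at -2.29 ± 0.28, the flap endonuclease gene Fen1 at -1.38 ± 0.12 and the ribonucleotide reductase gene Rrm2 at -1.30 ± 0.14. In these bulk samples fewer cells in a phase of the cycle and less RNA per cell cannot be told apart. Of mitosis and spindle genes 7 of 29 were lower and 1 higher (27.6% called, against 32.4% of all genes), with a median of -0.27. Cyclin A2 (Ccna2) was at -0.66 ± 0.14, the kinase genes Aurkb and Cdk1 at -0.56 ± 0.11 and -0.54 ± 0.08, the checkpoint gene Mad2l1 at -0.49 ± 0.12 and Foxm1 at -0.45 ± 0.16. The Foxm1 call was lost without fraction replicate 3 or mixture replicate 2 (adjusted p = 0.21 and 0.18), and without replicate 1 of every group 12 mitosis genes were lower.

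The Cdc6 promoter is shown as that of a replication gene with a large difference, with the letters TTTNNCGC of E2F elements in capitals on either strand.
Cdc6, chr11:98907901-98908150, plus strand: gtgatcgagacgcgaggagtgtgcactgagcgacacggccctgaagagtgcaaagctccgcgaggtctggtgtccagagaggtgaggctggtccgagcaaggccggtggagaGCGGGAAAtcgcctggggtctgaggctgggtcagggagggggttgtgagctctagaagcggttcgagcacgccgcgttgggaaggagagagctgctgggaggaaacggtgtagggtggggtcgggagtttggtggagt
Of 30 replication genes with a promoter entry 9 hold these letters (30%), 7 of them among the 22 called, against 4.94% of all promoters.

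Among p53 targets, growth arrest and apoptosis genes 8 of 25 were higher and 6 lower (56% called, against 32.4% of all genes). Gadd45a, a growth arrest gene induced by p53 and by ATF4, read 1405, 1162 and 674 against 63.5, 91.9 and 92.8 with no overlap (12.7-fold, 3.66 ± 0.27, adjusted p = 6.3e-09). The apoptosis gene Bcl2l11 was at 1.16 ± 0.14, whereas Sesn1, a p53 target, was at -1.19 ± 0.18. Of immediate early and Kruppel-like factors 9 of 26 were higher and 3 lower (46.2% called, against 32.4% of all genes). Klf4, a zinc finger factor of macrophage polarization, read 2039.8, 1572 and 1351 against 156, 139.6 and 159 (10.8-fold, 3.43 ± 0.20, adjusted p = 2.4e-10), and both its probe sets were higher. Klf2 was at 2.10 ± 0.26, Klf6 at 2.02 ± 0.19, Klf9 at 1.09 ± 0.17 and the growth regulator Myc at 1.60 ± 0.35.

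Lipid synthesis genes were lower with the fraction. In cholesterol synthesis and sterol sensing 15 of 21 members were lower and 0 higher (71.4% called, against 32.4% of all genes). The median was -0.60. Insig1, which holds the SREBP complex in the endoplasmic reticulum and is itself an SREBP target, read 228, 190.4 and 147 against 762, 752 and 845. The groups did not overlap (4.24-fold lower, -2.08 ± 0.17, adjusted p = 1.7e-08). Hmgcs1, the HMG-CoA synthase, read 1208, 1172 and 1257 against 2949, 3038 and 3323 (-1.35 ± 0.13, adjusted p = 2.3e-07), with all 5 probe sets lower. The sterol carrier gene Stard4 (-1.33 ± 0.14), the isomerase gene Idi1 (-1.28 ± 0.11) and the squalene epoxidase gene Sqle (-1.10 ± 0.12) were lower too. Of fatty acid synthesis and desaturation genes 11 of 18 were lower and 0 higher (61.1% called, against 32.4% of all genes). The median was -0.40. The fatty acid synthase gene Fasn read 1562, 1667 and 1415 against 3395, 3656 and 3466 (-1.18 ± 0.09, adjusted p = 6.7e-09). The elongase gene Elovl6 was at -1.18 ± 0.14, the desaturase genes Scd2 and Fads2 at -1.16 ± 0.22 and -0.71 ± 0.14, and Acsl3, which activates fatty acids, at -0.56 ± 0.13. The LXR and PPAR list held 5 higher and 1 lower members of 20, near the background at 30% called. Plin2, which coats lipid droplets, read 6467, 7108 and 4893 against 1429, 1482 and 1102 with no overlap (4.58-fold, 2.20 ± 0.23, adjusted p = 4.6e-07), and its relative Plin3 was at 0.90 ± 0.12. The lysosomal cholesterol exporter gene Npc1 was at 0.84 ± 0.17. Hilpda (0.82 ± 0.24) and Ppard (0.72 ± 0.22) lost their calls without fraction replicate 3 (adjusted p = 0.057 and 0.078).

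The Hmgcs1 promoter is the only one of 17 in the sterol list with the letters TCACNCCAC of a sterol regulatory element (5.88%, against 1.22% of all promoters), shown in capitals, and Insig1 and Idi1 have no match in their windows.
Hmgcs1, chr13:119690101-119690350, plus strand: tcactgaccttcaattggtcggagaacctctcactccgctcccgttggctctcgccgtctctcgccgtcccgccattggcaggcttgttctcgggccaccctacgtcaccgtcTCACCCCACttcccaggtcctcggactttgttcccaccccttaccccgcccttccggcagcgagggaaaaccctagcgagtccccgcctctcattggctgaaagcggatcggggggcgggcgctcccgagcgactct

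Heat shock genes of the cytosol were lower in 8 of 20 cases and higher in 1 (45% called, against 32.4% of all genes). Hspa1b, an inducible HSP70, read 66.2, 79.1 and 54.6 with the fraction, 1041, 1163 and 974 with the mixture and 889.7, 967 and 1117 with vehicle. It was the largest fall of all genes tested, 16.04-fold (-4.00 ± 0.17, adjusted p = 5.2e-12), with fraction replicate 3 under its array median and all 3 probe sets lower. Its near-identical copy Hspa1a, named here after its values were seen, lay under the array median in both groups (-0.70 ± 0.43, adjusted p = 0.23), and the probes may not separate the copies. The HSP40 co-chaperone genes Dnaja1 (-0.85 ± 0.10) and Dnajb1 (-0.82 ± 0.11) and the nucleotide exchange factor gene Hsph1 (-0.74 ± 0.10) were lower, and the HSP40 gene Dnajb4 was higher (1.18 ± 0.10). The Hspa1b promoter follows, with the letters GAANNTTC of heat shock elements in capitals. They occur in 7 of 18 heat shock promoters (38.9%), in 2 of the 8 whose genes were called, and in 7.73% of all promoters.
Hspa1b, chr17:34959239-34959488, minus strand: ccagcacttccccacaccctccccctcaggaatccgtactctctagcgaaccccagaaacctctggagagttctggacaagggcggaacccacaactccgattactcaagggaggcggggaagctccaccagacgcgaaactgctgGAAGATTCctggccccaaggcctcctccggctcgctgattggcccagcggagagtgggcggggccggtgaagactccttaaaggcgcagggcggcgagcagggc

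Calls made up 34.8% of the glycolysis and hypoxia list, 36% of the lysosome list and 29.2% of the macrophage identity list. These counts lie near the 32.4% of all genes and are given as values. The share was lower in the respiratory list (21.4%) and higher in the ribosome biogenesis list (45.8%), where most calls were falls. Glycolysis and hypoxia genes had 6 higher and 2 lower of 23, with 5 and 6 without fraction replicate 3, 6 and 0 without fraction replicate 1, and 6 and 1 without mixture replicate 3. Ndrg1, a stress-regulated gene also induced by hypoxia, read 4414, 5864 and 6395 against 429, 721 and 714 (9.08-fold, 3.18 ± 0.30, adjusted p = 1.3e-07), with all 5 probe sets higher. The glucose transporter gene Slc2a3 was at 1.09 ± 0.11 and the phosphofructokinase gene Pfkp at 0.59 ± 0.12. Respiratory chain and ATP synthase genes had 1 higher and 5 lower of 28, with 0 and 3 after median centring, 2 and 3 after quantile normalization and 1 and 3 without fraction replicate 2, led by Sdhd (-0.71 ± 0.09), Atp5g1 (-0.63 ± 0.09) and Cox7a2 (-0.42 ± 0.09). Ndufv1 (0.30 ± 0.08) and Ndufa4 (-0.27 ± 0.08) lost their calls after median centring (adjusted p = 0.16 and 0.12), Ndufv1 also without mixture replicate 3 and Ndufa4 without fraction replicate 2 or mixture replicate 2 (adjusted p = 0.070, 0.056 and 0.078). Ribosome biogenesis genes had 10 lower and 1 higher of 24, among them Nop16 (-0.82 ± 0.07), Polr1b of RNA polymerase I (-0.64 ± 0.10), Nolc1 (-0.60 ± 0.07) and Dkc1, the pseudouridine synthase dyskerin (-0.60 ± 0.11), with Nop14 in the other direction (0.48 ± 0.09). Lysosomal genes had 8 higher and 1 lower of 25, and 5 and 1 after median centring, where every difference is set against the array medians. The galactosidase gene Gla (0.99 ± 0.14), the proton pump gene Atp6v1a (0.86 ± 0.10) and the hexosaminidase gene Hexa (0.45 ± 0.08) were higher, and the sialidase gene Neu1 (-0.61 ± 0.11) lower.

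Macrophage identity genes had 5 higher and 2 lower of 24 (29.2% called, near the 32.4% of all genes). Fcgr2b, the inhibitory Fc gamma receptor, read 3329.6, 4157 and 3812 against 297, 229.9 and 245, 14.7-fold higher without overlap (3.87 ± 0.23, adjusted p = 4.0e-10), and all 4 probe sets were higher. The beta-glucan receptor gene Clec7a was at 0.75 ± 0.17 and the myeloid factor gene Cebpa at -0.87 ± 0.12. All 10 macrophage markers, among them Csf1r, Cd68 and Lyz2, reached the array median on all 6 arrays, with summed signals of 98724 to 111972 with the fraction and 111175 to 122629 with the mixture. Of 25 markers of other cell types 0 did so on all 6 arrays and 20 on none, with sums of 415 to 703 and 588 to 764. Among the 6 of these that entered the test Kdr passed (1.52 ± 0.53, adjusted p = 0.034), at signals that overlapped, and its call was lost without fraction replicate 2 or 3 or mixture replicate 2 or 3 (adjusted p from 0.082 to 0.20).

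**Figure D4:**
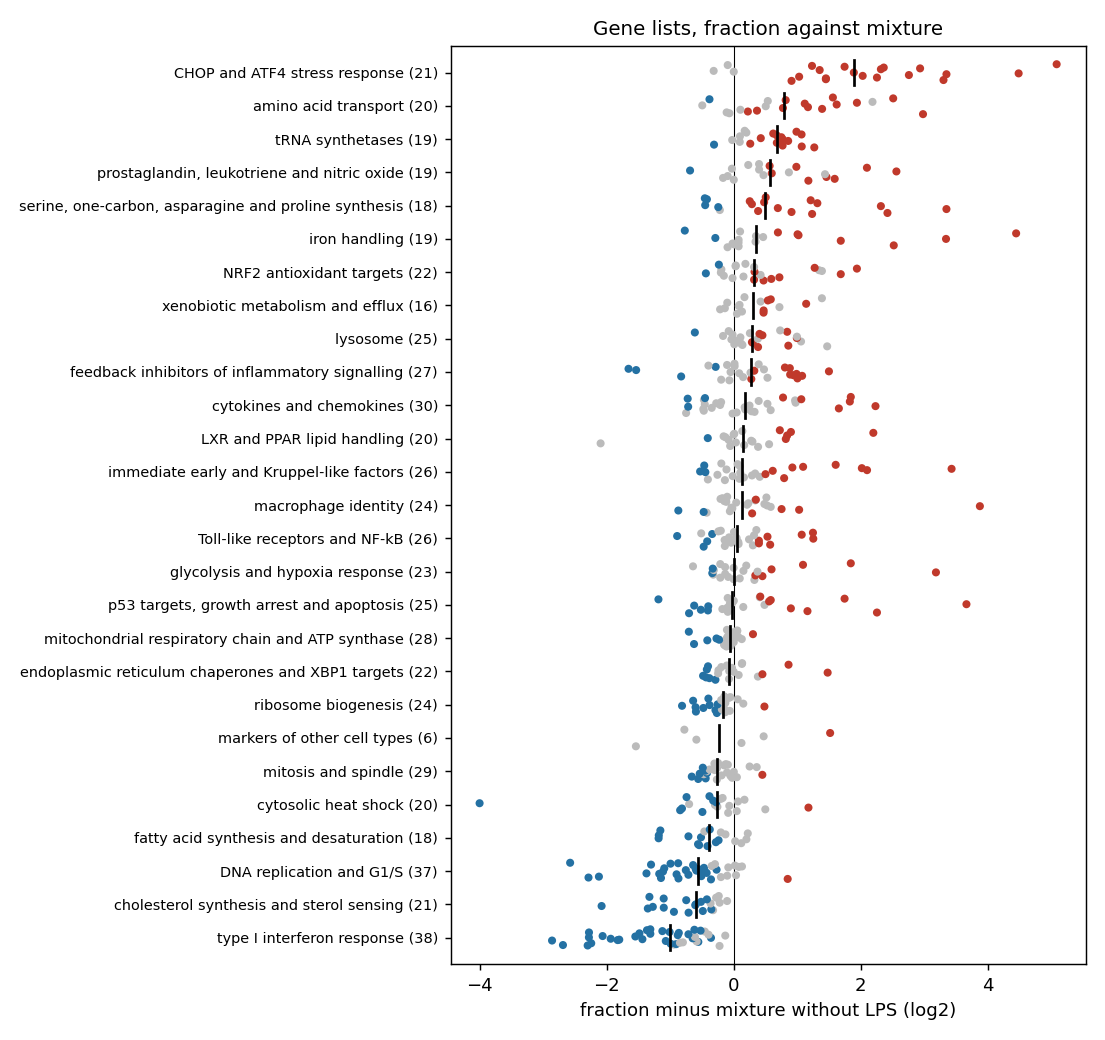
Each point is a tested list member at its log2 difference of fraction minus mixture, in red or blue where higher or lower past the threshold and grey where not, with the number of tested members beside each list name and the list median as a black bar. The CHOP and ATF4 list lies highest at a median of 1.89 and the interferon list lowest at -1.004.

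Several genes with large differences belonged to no list. Dner, a Notch-related receptor with EGF repeats, read 4298, 3804 and 3604 with the fraction, 381, 407 and 345 with the mixture and 338, 678 and 786 with vehicle. It was 10.3-fold higher than with the mixture (3.37 ± 0.22, adjusted p = 1.6e-09). Aqp9, a channel for water and glycerol, read 452, 578 and 545 against 37.04, 43.7 and 36.3, at least 8.73-fold higher (3.75 ± 0.31). Slc46a3, a lysosomal carrier, was at least 5.56-fold higher (3.21 ± 0.37) and the histone deacetylase gene Hdac9 4.34-fold higher (2.12 ± 0.18). The actin-binding genes Avil and Afap1l1 were at least 4.05-fold and at least 2.57-fold higher, from mixture levels under the array median (4.44, or 5.47 without mixture replicate 1, and 3.66, or 2.92 without mixture replicate 3). Gm6377 (3.83 ± 1.02) lay under the array median in both groups and was at 4.55 and 2.81 without mixture replicate 2 and 3. The interferon-inducible GTPase family gene Gbp8 (4.44 ± 1.55) lost its call without any 1 array other than mixture replicate 1 (adjusted p from 0.051 to 0.14). Gbp8 reached the array median only on the fraction arrays without LPS, so it entered the test through the group where it was high. Avil and Afap1l1 reached it only on the fraction arrays without and with LPS, and so also entered through the treatment where they were high. Of the 12 largest falls, Hspa1b, Ifit1, Cxcl10 and Ung had both group means above the array median. The phosphatase gene Ctdspl (-2.97 ± 0.68), the adaptor gene Nos1ap (-2.80 ± 0.77) and Zfp651 (-2.46 ± 0.75) had only the mixture mean above it, and Zfp651 lost its call without fraction replicate 3 or mixture replicate 3 (adjusted p = 0.082 and 0.057). Trim30d (-2.77), 4930573C08Rik (-2.68), Kcnd1 (-2.51), Maf (-2.42) and Rian (-2.39) lay under it in both groups, so their size depends on the treatment of low signals. With 32 added to every signal in place of the floor they were at -0.65, -1.04, -1.01, -0.71 and -0.84, and Trim30d, Maf and Rian lost their calls (adjusted p = 0.16, 0.057 and 0.063). Leaving out 1 array moved 4930573C08Rik to -1.74 (fraction replicate 2) and Maf to -1.03 (fraction replicate 3), ended the Trim30d call (mixture replicate 2, adjusted p = 0.088), and ended the Rian call (fraction replicate 1 or 2, mixture replicate 1 or 2, adjusted p from 0.056 to 0.13). Among called genes 19 higher and 13 lower lay under the array median in both groups.

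With LPS present, fraction minus mixture had 1381 higher (12%) and 1874 lower genes (16.2%), on other arrays. Of the genes called without LPS, 2078 were called with the same sign with LPS, which is 55.5% of the calls without and 63.8% of those with LPS, and 27 had the opposite sign. The difference between the states itself passed in 234 genes, 157 more positive without LPS (1.36%) and 77 more negative (0.667%). It passed in 85 of the 1638 genes called only without LPS. Trib3 was at 5.08 without and 3.53 with LPS (difference 1.55 ± 0.23, adjusted p = 0.0017), Ddit3 at 4.49 and 2.57 (1.91 ± 0.32, adjusted p = 0.0041). Klf4 was at 3.43 and 1.22 (2.21 ± 0.28, adjusted p = 3.4e-04) and Cxcl2 at 2.23 and 0.07 (2.16 ± 0.28, adjusted p = 4.1e-04). These 4 genes showed the larger difference without LPS. So did, on the lower side, Hspa1b at -4.00 and -1.14 (-2.87 ± 0.24, adjusted p = 2.9e-06) and Cxcl10 at -2.69 and -0.57 (-2.12 ± 0.26, adjusted p = 2.8e-04). In the interferon list 13 of 38 members were lower with LPS, against 16.2% of all genes, and the difference passed in 5. With LPS the CHOP and ATF4 list had 18 of 21 members higher, against 12% of all genes, and 1 lower. The difference passed in 6 of its members. Mitosis genes were lower in 21 of 29 with LPS, against 16.2% of all genes, and the difference passed in 3. Over all genes the difference was more positive in 1.36% and more negative in 0.667%. The count of 234 moved with single arrays. It was 122 without fraction replicate 2, 126 without mixture replicate 3, 120 without fraction with LPS replicate 3, and 147, 107 and 125 without mixture with LPS replicates 1, 2 and 3. It was 98 after median centring, 77 more positive and 21 more negative.

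**Figure D5:**
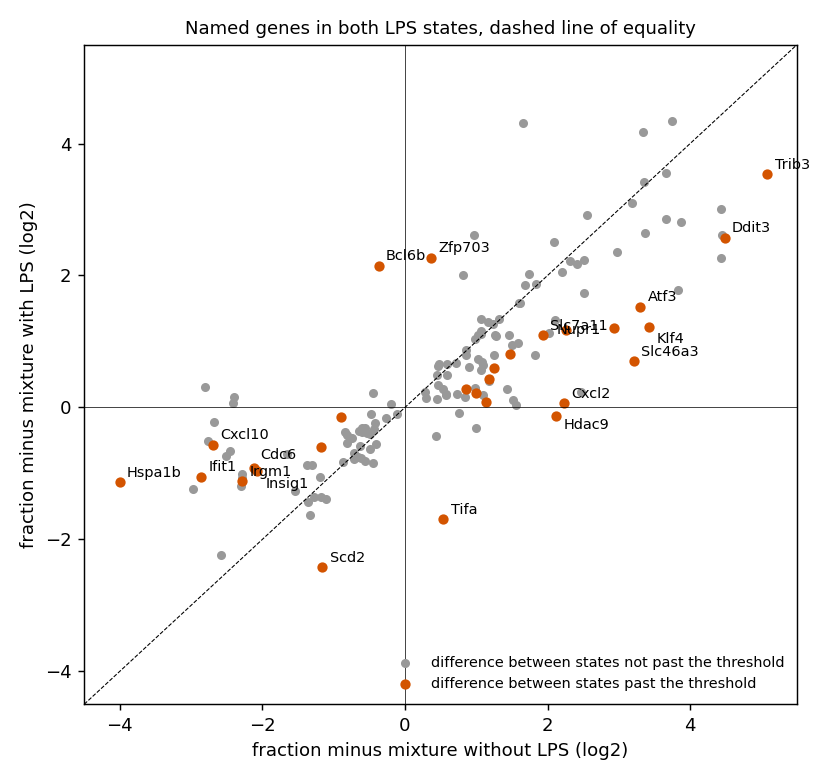
Each point is one of the 154 named genes, with fraction minus mixture without LPS on the horizontal axis and with LPS on the vertical axis, both in log2, and a dashed line of equality. Orange marks the 28 genes whose difference between states passed the threshold, such as Trib3 at 5.08 and 3.53 and Hspa1b at -4.00 and -1.14.

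The response of vehicle cells to LPS was measured on none of the 6 arrays compared. LPS raised 410 genes and lowered 410 genes at least 2-fold in vehicle cells (3.55% each). Of the raised genes 117 were higher (28.5%, against 17% of all genes) and 65 lower (15.9%, against 15.4%) with the fraction than with the mixture in the absence of LPS, with a median of 0.20. Of the lowered genes 54 were higher (13.2%) and 117 lower (28.5%), with a median of -0.15. The raised set was not uniform. Its 25 interferon list members had 0 higher and 19 lower, with a median of -1.37, and its other 385 genes had 117 higher and 46 lower, with a median of 0.27. Ptger2, Cxcl2 and Lcn2 stood among the raised genes that were higher with the fraction, and Ifit1, Rsad2 and Socs3 among those that were lower. Of 15 replication genes lowered by LPS 12 were lower with the fraction, Ung, Cdc6 and Ccne2 among them.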

How the data were processed

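Deposited values were linear signal intensities, made by the authors with MAS5 per the submitters' processing notes, and the version is not given in the sources used here. In the deposited table the 2% trimmed mean is 500 on each of the 18 arrays, and the array medians lie between 52.1 and 66.8. Of 45101 probe sets, 64 controls were left out, 34945 carry 1 gene symbol, 932 several and 9160 none in GEO's platform annotation. Intensities were floored at 1, which raised 0.824% of values, and taken to log2. Probe sets were kept where they reached the array median on at least 3 arrays, and the brightest probe set stood for a gene, which gave 11547 genes. For 45 of the 5575 genes with several kept probe sets, these were called in both directions.

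Group means of 6 groups were fitted over 18 arrays with limma 3.58.1 in R 4.3.3, with a trend of the variance on intensity, 12 residual degrees of freedom, two-sided tests and Benjamini-Hochberg adjustment over all genes, at 0.05. The code of the fit was run on 20 simulated data sets with independent normal noise and 200 changed genes each. That setting differs from these data, where far more genes were called, so it does not bear on the calls given here. An exact test of 3 arrays against 3 cannot go below p = 0.1. A fold is a lower bound ("at least") where one group's mean lies under the array median, and none is given where both do. The genes and lists were chosen with earlier results of these data known. Some genes stand on several lists, among them Cth, Slc7a11 and Npc1, so the list counts are not independent. Named genes were the 12 largest rises and 12 largest falls past the threshold without overlap of the groups, up to 5 called members of each list with the largest differences, a fixed group (Cyp1a1, Hmox1, Il1b, Il6, Nos2, Ptgs2, Socs3 and Tnf), the 5 largest differences between LPS states in each direction, and the 5 genes with the smallest p between mixture and vehicle. Promoter sequences came from RefSeq (GRCm38.p6) by gene symbol. Alternatives were a replicate block, median centring, quantile normalization, a pseudocount of 32 before log2, other filters, every probe set, no intensity trend, only the arrays compared, and leaving out replicates.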

Additional observations from a re-analysis of the deposited data

Results flagged for a closer look

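Among the named genes, 28 had a fraction minus mixture difference that itself differed between cells without and with LPS, by the interaction contrast of the limma fit at an adjusted p of 0.05. Values are the log2 difference without LPS minus that with LPS, from 12 arrays.

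More positive without LPS were Slc46a3 (2.51), Hdac9 (2.25), Tifa (2.24), Klf4 (2.21), Cxcl2 (2.16), Ddit3 (1.91), Atf3 (1.78), Nupr1 (1.73) and Trib3 (1.55). The same direction held for Scd2 (1.26), Bbc3 (1.08), Cyp27a1 (1.06), Slc7a11 (0.84), Gla (0.77), Dnajb4 (0.75), Herpud1 (0.66), Tlr4 (0.65) and Atp6v1a (0.57). A positive value need not be a larger rise without LPS. Tifa had no call there (0.54, adjusted p = 0.10 by limma), and Scd2 was lower with the fraction (-1.16).

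More negative without LPS were Hspa1b (-2.87), Bcl6b (-2.52), Cxcl10 (-2.12), Zfp703 (-1.91), Ifit1 (-1.81), Cdc6 (-1.20), Irgm1 (-1.16), Insig1 (-1.11), Tirap (-0.75) and Fasn (-0.58). This group holds the interferon genes Ifit1, Cxcl10 and Irgm1 and the heat shock gene Hspa1b. It also holds 2 genes with no call without LPS by limma, Bcl6b (-0.37, adjusted p = 0.48) and Zfp703 (0.36, adjusted p = 0.19). For these a negative value is not a called fall without LPS.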

How the results depend on the processing

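Of 144 named genes past the threshold between fraction and mixture, 123 kept their direction and their call in every alternative run that tested them. The other 21 lost the call in at least one. A filter at the 75th percentile of the array left some of the named genes untested, Avil and Slc46a3 among them. The sign of Il1b, which had no call, turned without fraction replicate 2 (0.077, adjusted p = 0.81), with values from -0.36 to 0.077 when arrays were left out. With every probe set tested, the counts of calls were 5749 for fraction against mixture, 5582 for fraction against vehicle and 5111 for fraction against mixture with LPS. Leaving out replicates gave 3039 to 3298, 2900 to 3224 and 2400 to 2776 for the same comparisons. For mixture against vehicle it gave 0 to 5, and testing without a filter gave 1. The difference between LPS states passed in 107 to 200 genes when replicates were left out, in 98 after median centring (77 more positive and 21 more negative) and in 121 without the intensity trend. Median centring left 2666 calls between fraction and mixture, 1390 higher and 1276 lower. The causes of these changes were not tested.

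The labels give replicate numbers but do not say that a number marks a shared culture or day. Deviations of same-numbered fraction and mixture arrays correlated at 0.030, 0.069 and 0.12, so not every pair passed 0.1. All 12 same-number pairs examined were positive (0.030 to 0.12), and different numbers ran from -0.13 to 0.046. Deviations were taken from each group's own mean, so higher values for the same number bring lower ones for the others. The pairs without LPS also share arrays and are not independent. Every array correlated best with its own number except fraction replicate 1 (0.038 with mixture replicate 2) and fraction with LPS replicate 2 (0.046 with mixture with LPS replicate 3). This is a hint of a shared number from the data, not from the design. With the replicate number as a block the counts were 4268 for fraction against mixture, 4161 for fraction against vehicle, 3757 with LPS, 0 for mixture against vehicle and 537 for the difference between LPS states. In the mitosis list the block gave 15 lower genes in place of 7, and in the lysosome list 12 higher in place of 8.

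With 3 arrays a group, precision is limited by their number, and genes whose signals lie under the array median have differences that depend on the floor.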
